A study of Homo sapiens with 12 samples.

Results

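The mRNAs of the cytosolic ribosomal proteins were followed in an actinomycin D time course. They were chosen by gene symbol. The whole symbol had to be RPL or RPS and a number, with at most 1 further letter and digits after it. RPLP0, RPLP1, RPLP2 and RPSA were added, and the RPS6 kinase genes and symbols that end as pseudogene names do were left out. Symbols with more letters, such as RPL36AL, or with a hyphen do not match. The rule gave 86 of the 26334 gene symbols in the count table, 52 of the large subunit and 34 of the small subunit. Of the 86, 9 are paralogs, second copies whose symbols carry an added L, L1 or Y. The cells were shA673-1c, an Ewing sarcoma line kept in medium with blasticidin and zeocin, treated with 5 µM actinomycin D (ActD), which blocks transcription, for 0, 1, 2 or 4 h. Each time point had 3 replicates, and the 12 poly(A)-selected libraries held between 9147018 and 11194705 counts each. All groups share the line, the medium and the construct that its name implies. The labels call the replicates biological, but do not say what the construct targets, and they give the dose of 5 µM for 0 h as well.

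Ribosomal proteins bind the ribosomal RNAs to form the large and the small subunit, and most of them are made from a single functional gene with many processed pseudogene copies. Their mRNAs are short, abundant and generally long-lived. Most begin with a C followed by a run of C and T, the terminal oligopyrimidine (TOP) tract, through which the mTOR pathway and the RNA-binding protein LARP1 control their translation and stability.

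The first bases of 15 members are shown because the tract is what most canonical members share and what several paralogs lack. Each line gives 10 bases before and 20 bases from the start that RefSeq lists, so that the annotated start is the base after the first 10. Capitals mark the tract, defined as a C within 2 bases of a listed start followed by at least 4 letters C or T, and a line with no capitals has no such tract.
RPS19 (GRCh38.p14, chr19:41860245-41860274, plus strand): ccccgtcgttCCCTTTCCCCTggctggcag
RPLP1 (GRCh38.p14, chr15:69452808-69452837, plus strand): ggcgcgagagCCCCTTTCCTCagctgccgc
RPLP2 (GRCh38.p14, chr11:809957-809986, plus strand): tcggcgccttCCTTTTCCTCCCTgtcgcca
RPL26 (GRCh38.p14, chr17:8383174-8383203, minus strand): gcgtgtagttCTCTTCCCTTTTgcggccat
RPL38 (GRCh38.p14, chr17:74203668-74203697, plus strand): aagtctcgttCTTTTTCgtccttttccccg
RPL41 (GRCh38.p14, chr12:56116623-56116652, plus strand): cttcgcctttCTCTCggccttagcgccatt
RPL36A (GRCh38.p14, chrX:101391001-101391030, plus strand): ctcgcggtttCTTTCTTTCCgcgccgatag
RPS15 (GRCh38.p14, chr19:1438386-1438415, plus strand): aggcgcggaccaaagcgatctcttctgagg
RPL4 (GRCh38.p14, chr15:66504836-66504865, minus strand): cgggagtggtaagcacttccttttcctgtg
RPS27 (GRCh38.p14, chr1:153990752-153990781, plus strand): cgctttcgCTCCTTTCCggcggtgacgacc
RPS27L (GRCh38.p14, chr15:63157458-63157487, minus strand): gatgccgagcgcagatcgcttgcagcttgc
RPL22 (GRCh38.p14, chr1:6199576-6199605, minus strand): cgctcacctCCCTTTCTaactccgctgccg
RPL22L1 (GRCh38.p14, chr3:170870176-170870205, minus strand): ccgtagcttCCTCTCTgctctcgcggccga
RPL26L1 (GRCh38.p14, chr5:172958719-172958748, plus strand): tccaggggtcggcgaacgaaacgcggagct
RPL7L1 (GRCh38.p14, chr6:42879606-42879635, plus strand): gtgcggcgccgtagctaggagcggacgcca

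Of the 86 members, 69 had a start sequence, and 52 of these 69 (75.4%) held the tract. Among tested canonical members the share was 49 of 61 (80.3%), against 16.9% of 9155 tested genes with a start sequence and 13.0% of all 27305 genes in the RefSeq table. The paralogs held it in 2 of 7 cases. RPL22L1 had the tract, whereas RPL7L1, RPL26L1 and RPS27L had none in this window. RPS15 and RPL4 also showed no tract at the listed start. A missing match says only that no such run begins within 2 bases of a listed start. The windows of RPS15 and RPL4 hold such a run further in.

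The line was checked with 8 genes known to be high in Ewing sarcoma, of which 6 had at least 10 counts in all 12 libraries. PRKCB, for example, had 1015 to 1789 counts. NKX2-2 had 7 to 87 counts, and CD99 was listed at 0 in every library. The 6 genes of blood, endothelial, epithelial and liver cells had at most 6 counts in any library. MYC, a short-lived mRNA that checks the block of transcription, fell from 134 ± 11.5 to 8.36 ± 2.75 CPM (counts scaled to library size with TMM factors, mean ± SD, n = 3).

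Most ribosomal protein mRNAs made up a growing part of the mRNA that remained. Their summed counts were 4.28% ± 0.17 of the library at 0 h, 4.35% ± 0.12 at 1 h, 4.82% ± 0.17 at 2 h and 5.36% ± 0.10 at 4 h (SD, n = 3). The libraries at 4 h ranged from 5.24% to 5.42%, all above those at 0 h, which ranged from 4.10% to 4.43%, and the 95% Wilson interval of the lowest 4 h library, 5.22% to 5.25%, covers counting error only. The 20 members with most counts carried 51.5% of all member counts.

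A slope in log2 change per hour was fitted for each gene that had a mean of at least 10 counts, 80 of the 86 members and 12032 genes in all. Under TMM scaling 73 of the 80 tested members rose, 1 fell and 6 did not pass the test, but under scaling to GAPDH and ACTB 1 rose and 8 fell (edgeR's quasi-likelihood test, Benjamini-Hochberg adjusted p below 0.05 over all tested genes). Of all tested genes 30.7% rose and 32.1% fell under TMM scaling, and 0.931% rose and 64.2% fell under scaling to GAPDH and ACTB. The median slope of the members was 0.12, against 0.0093 for all tested genes. Scaling to GAPDH and ACTB lowered the median of all genes by 0.14 and put the median of the members at -0.017. Relative to the median of all genes, the members lay 0.11 higher under both scalings. A change of scaling shifts nearly all slopes by about the same amount, so this difference is not a check of either scaling. GAPDH (slope 0.15) and ACTB (slope 0.12) moved as the median member did under TMM scaling. All slopes below are TMM-scaled and relative, so a rise means that the mRNA was lost more slowly than the scaled pool or that its level grew, which counts alone cannot tell apart. Fewer cells and less RNA per cell cannot be told apart either.

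The median rise came after the first hour. The median change of the members from 0 h, taken within each replicate on log2(CPM + 0.5), was 0.015 ± 0.024 at 1 h, 0.22 ± 0.027 at 2 h and 0.45 ± 0.029 at 4 h (SD, n = 3), while that of all tested genes stayed between -0.022 and 0.019. At 1 h 30 of 80 members were up in 3 of 3 replicates and 13 were down in 3 of 3, against 2376 up and 3421 down of 12032 for all genes. By 4 h 76 were up in 3 of 3, against 4967 of 12032 for all genes. For 71 members every 4 h library lay above every 0 h library, which was so for 30.4% of all tested genes.

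**Figure D1:**
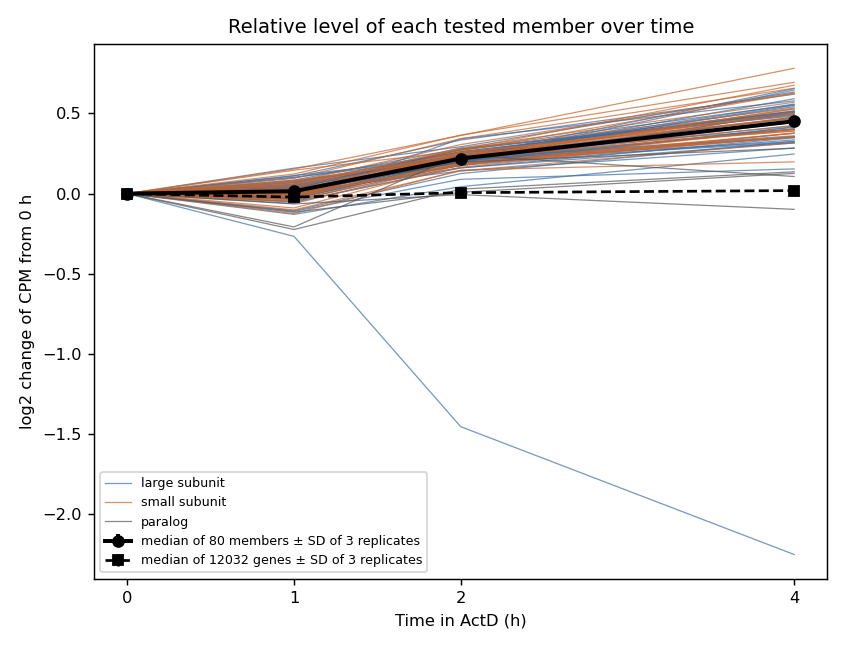
The log2 change of mean CPM from 0 h (y axis) is drawn against hours in ActD (x axis) for each of the 80 tested members, with thick lines for the medians of the members and of 12032 genes (± SD of 3 replicates, TMM scaling). The members' median is near 0 at 1 h and 0.45 at 4 h, most members lie close to it, and RPL36A alone falls far below; under scaling to GAPDH and ACTB the rise is lost.

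The direct contrast of 4 h with 0 h called 71 members higher and 1 lower, where 28.7% of all tested genes were higher and 31.6% lower (edgeR, adjusted p below 0.05). Under scaling to GAPDH and ACTB it called 1 higher and 11 lower, where 0.923% of all genes were higher and 63.3% lower. The ratio of mean CPM at 4 h to that at 0 h had a median of 1.39 over the 75 tested canonical members, and quartiles of 1.30 and 1.44. A test for departure from a straight line in time called 0 of 80 members with edgeR, where 2.7% of all genes were called. With DESeq2 it called 2 of 80 members, where 466 of 12032 genes were called. At an unadjusted p below 0.05 edgeR called 12 members, and the share of all genes at that threshold was not counted. Blocking on the replicate number, by which libraries deviated together, raised the edgeR count of 0 to 44 of 80 members, where 17.2% of all genes were called. The counts of 0, 12 and 2 ignore that pairing.

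The canonical members of both subunits gave like counts. Of 45 tested canonical large subunit genes, 43 rose, with a median slope of 0.12, and of 30 small subunit genes 29 rose, with a median of 0.12. The paralogs gave 1 rise among 5 tested, with a median slope of 0.052. The canonical members that did not rise were RPL36A, RPL17 and RPS10. RPL3 (slope 0.14 ± 0.013 SE) and RPL10 (slope 0.13 ± 0.016 SE), whose paralogs RPL3L and RPL10L had next to no counts, rose. Among the paralogs RPL26L1 was the one that rose, with a slope of 0.077 ± 0.030 (SE, edgeR adjusted p = 0.031), and it did not pass without replicate 1 (slope 0.071, edgeR adjusted p = 0.147), without replicate 3 (slope 0.056, edgeR adjusted p = 0.117) with library totals (slope 0.038, edgeR adjusted p = 0.26) or with no count filter (slope 0.075, edgeR adjusted p = 0.0533). RPL22L1 (slope 0.054 ± 0.023 SE, edgeR adjusted p = 0.0503) was next to the threshold, and it passed with the replicate block (edgeR adjusted p = 0.0246), with DESeq2 size factors (edgeR adjusted p = 0.0484) and with TMM factors computed without the members (edgeR adjusted p = 0.0442). RPL39L (0.052 ± 0.040 SE), RPS27L (0.042 ± 0.022 SE) and RPL7L1 (-0.020 ± 0.015 SE) did not pass. With library totals RPL7L1 fell (slope -0.059, edgeR adjusted p = 0.00154).

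Among the small subunit proteins, RPS15 had the highest slope of all members. RPS15, a protein near the decoding site, was at 249, 223 and 234 CPM at 0 h, at 254, 263 and 269 CPM at 1 h, at 320, 295 and 294 CPM at 2 h, and at 416, 390 and 409 CPM at 4 h. Every 4 h library was above every library of the earlier times, and the slope was 0.20 ± 0.013 (SE, edgeR adjusted p = 5.64e-09). It was also the only member that rose under scaling to GAPDH and ACTB, with a slope of 0.060 (edgeR adjusted p = 0.00759). RPS19, a protein needed for maturation of the small subunit rRNA and mutated in Diamond-Blackfan anaemia, was at 657, 688 and 654 CPM at 0 h and at 1105, 1088 and 1042 CPM at 4 h. The groups did not overlap, and the slope was 0.18 ± 0.012 (SE, edgeR adjusted p = 6.11e-09). RPS2, at the entry of the mRNA channel, had a slope of 0.18 ± 0.014 (SE). RPSA, also known as the laminin receptor, went from 425 ± 17.3 to 615 ± 22.6 CPM (SD, n = 3), with a slope of 0.14 ± 0.015 (SE, edgeR adjusted p = 3.02e-07).

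The P stalk of the large subunit, which recruits the translation factors that hydrolyse GTP, consists of RPLP0 and dimers of RPLP1 and RPLP2. RPLP2 was at 199, 200 and 201 CPM at 0 h, at 224, 212 and 209 CPM at 1 h, at 254, 231 and 217 CPM at 2 h, and at 312, 322 and 312 CPM at 4 h. Its 4 h libraries lay above all others, and the slope was 0.17 ± 0.015 (SE, edgeR adjusted p = 9.3e-08). RPLP1 was at 814, 824 and 812 CPM at 0 h and at 1229, 1318 and 1287 CPM at 4 h, also without overlap. Its slope was 0.17 ± 0.015 and that of RPLP0 was 0.15 ± 0.014 (SE). The 3 stalk mRNAs thus rose under TMM scaling, as did 72 of the 75 tested canonical members. Under scaling to GAPDH and ACTB RPLP0, RPLP1 and RPLP2 did not pass (edgeR adjusted p = 0.687, 0.228 and 0.172).

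Other large subunit members rose too, with RPL4 and RPL26 in the lower part of the order. RPL4 went from 1683, 1851 and 1773 CPM at 0 h to 2215, 2289 and 2110 CPM at 4 h, with a slope of 0.087 ± 0.014 (SE, edgeR adjusted p = 5.48e-05). RPL26, which sits near the exit of the peptide tunnel, went from 521, 584 and 521 CPM to 643, 723 and 659 CPM, with a slope of 0.086 ± 0.015 (SE, edgeR adjusted p = 0.000127). Both had 4 h libraries above all 0 h libraries. RPL14 had a slope of 0.13 ± 0.013, RPL15 one of 0.098 ± 0.016 and RPL38 one of 0.13 ± 0.017 (SE), and all 3 passed the test.

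RPL41 encodes the shortest ribosomal protein, with a coding length of 75 bases. It was at 88.0, 92.3 and 86.5 CPM at 0 h and at 89.1, 105 and 103 CPM at 4 h. The groups overlapped, and the slope of 0.052 ± 0.020 (SE) was just past the threshold (edgeR adjusted p = 0.0368), while the contrast of 4 h with 0 h was not (edgeR adjusted p = 0.0951). Without replicate 2 the slope was 0.050 (edgeR adjusted p = 0.128), without replicate 3 it was 0.033 (edgeR adjusted p = 0.218), and with library totals it was 0.013 (edgeR adjusted p = 0.588). It also did not pass with no count filter (edgeR adjusted p = 0.0656) or with a mean of at least 100 counts (edgeR adjusted p = 0.0543). Under scaling to GAPDH and ACTB it fell, with a slope of -0.085 (edgeR adjusted p = 0.0067).

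RPL36A was the only member that fell under TMM scaling. It was at 6.8, 7.4 and 6.4 CPM at 0 h, at 4.9, 5.9 and 6.3 CPM at 1 h, at 3.4, 1.8 and 2.3 CPM at 2 h, and at 1.8, 0.9 and 1.7 CPM at 4 h. The 4 h libraries all lay below the 0 h libraries, and the slope was -0.61 ± 0.072 (SE, edgeR adjusted p = 1.76e-06). Each library held only 9 to 77 counts of it, and 99.4% of its coding windows of 75 bases occur letter for letter elsewhere in the genome. RPL17 (82.6% of windows shared) and RPS10 (85.9%) were also low, with means of 75.9 and 169 counts. Neither passed the test, with slopes of 0.076 ± 0.040 for RPL17 (SE, edgeR adjusted p = 0.105) and 0.066 ± 0.029 for RPS10 (SE, edgeR adjusted p = 0.0567). The read-through rows RPL36A-HNRNPH2, RPL17-C18orf32 and RPS10-NUDT3, annotated over these genes, were listed at 0 in all 12 libraries. RPS10 passed with a replicate block (slope 0.066, edgeR adjusted p = 0.04) and with its pseudogene row added (slope 0.069, edgeR adjusted p = 0.0427), and RPL17 passed without replicate 3 (slope 0.12, edgeR adjusted p = 0.0466).

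The 6 members with too few counts for a test included RPL21, RPL10L, RPL3L and the Y-linked paralogs of RPS4X. RPL21, which is canonical and made in every cell, was listed at 0 in every library, as was RPL10L, and RPL3L had at most 1 count. All coding windows of RPL21 occur elsewhere in the hg38 genome searched here. A 0 in this table is thus no evidence that the mRNA was absent.

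The level at 0 h, as CPM per kb of coding length, ranged over the 75 tested canonical members from 13.2 for RPL17 to 2470 for RPL37A, with a median of 987. RPL37A (2470 ± 125), RPS18 (2443 ± 113), RPLP1 (2387 ± 18.9), RPL37 (2353 ± 68.5) and RPS4X (2035 ± 70.4) were highest (CPM per kb, SD, n = 3). Among the first 4, neighbours in the order differed by less than the larger of their 2 SDs, and RPS4X lay below them by more than that. Over all 80 tested members, paralogs included, the lowest 5 were RPL17, RPL36A, RPS10, RPL26L1 and RPL39L, with 13.2 ± 2.36 for RPL17 and 89.5 ± 10.0 for RPL39L (CPM per kb, SD, n = 3). Level and shared windows ran in opposite directions over the 75 canonical members (Spearman's rho -0.46, a description over genes counted in the same libraries). The 12 of 86 members with at least 80% of windows shared included RPL21, RPL39, RPL36A, RPS28, RPS26, RPL7 and RPS27. Members not tested aside, those 12 had a median of 1579 mean counts, against 5759 for the others. How the authors assigned reads that match several places was not given in the sources used here.

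**Figure D2:**
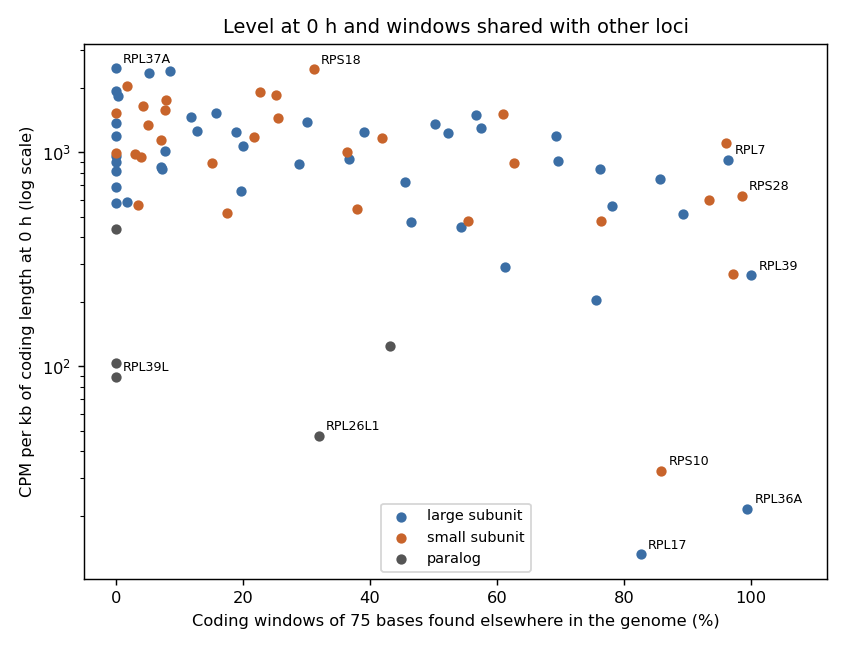
CPM per kb of coding length at 0 h (y axis, log scale) is set against the percent of 75-base coding windows found elsewhere in the genome (x axis) for the 80 tested members. RPL17, RPS10 and RPL36A are the lowest points and lie above 80% shared, while RPL37A at 0% is the highest.

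The paralogs were compared with their canonical partners by the slope of the log2 ratio of their counts, which needs no scaling between libraries (exact permutation of the 12 time labels, two-sided, adjusted over 5 pairs). RPL7L1, a relative of RPL7, was at 95.5, 99.5 and 91.1 CPM at 0 h and at 88.8, 89.8 and 88.8 CPM at 4 h, while RPL7 rose from 642, 740 and 682 CPM to 889, 943 and 895 CPM. RPL7L1 counts were 13.9% ± 0.85 of RPL7 counts at 0 h and 9.81% ± 0.25 at 4 h (SD, n = 3). The ratio fell by 0.13 on the log2 scale per hour (SE over replicates 0.0087, exact permutation adjusted p = 0.000189). RPS27L, a p53-responsive paralog of RPS27, went from 9.34% ± 0.34 to 7.26% ± 0.87 of RPS27 (SD, n = 3). That ratio fell by 0.095 on the log2 scale per hour (SE 0.019, exact permutation adjusted p = 0.00588). Without replicate 3 the slope was -0.087 and did not pass (exact permutation adjusted p = 0.0913).

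RPL22L1 was the only paralog with more counts than its partner, at 206% ± 11.5 of RPL22 at 0 h and 176% ± 6.07 at 4 h (SD, n = 3). Its ratio slope of -0.046 (SE 0.0075) did not pass without a block (exact permutation adjusted p = 0.0871) and passed with the replicate number as a block (exact permutation adjusted p = 0.0307). RPL39L, known from testis and some tumours, went from 34.7% ± 8.92 to 24.4% ± 3.02 of RPL39 (SD, n = 3). Its slope of -0.11 (SE 0.045) likewise did not pass without a block (exact permutation adjusted p = 0.12) and passed with it (exact permutation adjusted p = 0.0115). For RPL26L1 and RPL26 the slope was -0.0074 (SE 0.023, exact permutation adjusted p = 0.802), from 3.81% ± 0.42 to 3.73% ± 0.49 (SD, n = 3). Leaving out replicate 2 alone brought both RPL22L1 and RPL39L past the threshold (slopes -0.053 and -0.15, exact permutation adjusted p = 0.0382 for each). The canonical partner is the copy whose windows match other loci in 4 of these pairs, since RPL7 (96.3% of windows), RPS27 (96.0%), RPL39 (100%) and RPL22 (75.6%) share most of their windows while RPL7L1 shares 43.1% and RPS27L, RPL39L and RPL22L1 share 0%.

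The order of the members was similar in the 3 replicates. Over the 78 members with a mean of at least 100 counts, Spearman's rho between replicate slopes was 0.80, 0.73 and 0.86 (a description over genes, n = 78). The 10 members that were lowest in replicate 1 had median slopes of 0.056 in replicate 2 and 0.082 in replicate 3, and the 10 highest had 0.15 in both. The order also ran with base composition. Over the 73 canonical members of that kind, rho between slope and the GC content of the coding sequence was 0.57, against 0.20 over 10827 tested genes with a coding sequence. Both are descriptions over genes read in the same 12 libraries. The 73 members had a mean of at least 100 counts, while the 10827 genes needed only 10. The 24 members with the lowest GC content (42.5% to 48.5%) had a median slope of 0.11 and the 25 with the highest (54.2% to 63.0%) one of 0.14. RPS15 has the highest GC content of them at 63.0%. RPL39 (42.5% GC, slope 0.16 ± 0.031 SE) and RPL13A (57.6% GC, slope 0.076 ± 0.022 SE) lay off this order. A part of library GC bias in it was not tested. The percent of shared windows (rho -0.23), coding length (rho -0.18) and mean count (rho 0.050) ran less closely with the slope.

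The slopes of members with and without the TOP tract overlapped. The 49 tested canonical members with the tract had a median slope of 0.13 and the 12 without it 0.11, and the second group held RPS15 (0.20) and RPL4 (0.087). RefSeq places 60 small nucleolar RNA genes within the bounds of 29 members, such as SNORD32A, SNORD33, SNORD34 and SNORD35A in RPL13A. Among canonical members with a mean of at least 100 counts, the 27 such host genes had a median slope of 0.13 and the 46 others 0.12. This leaves out the host RPL17 (slope 0.076) and the non-host RPL36A (slope -0.61), which the comparison by tract keeps.

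Other mRNAs known to carry a TOP tract mostly rose under TMM scaling. Of 20 tested, 17 rose, 1 fell and 2 did not pass, with a median slope of 0.091 (edgeR, adjusted p below 0.05). Of all tested genes 30.7% rose and 32.1% fell. Under scaling to GAPDH and ACTB, 0 rose and 9 fell, where 0.931% of all tested genes rose and 64.2% fell. FAU, which encodes a ubiquitin-like protein fused to a ribosomal protein, had a slope of 0.16 ± 0.015 (SE). EEF1D, an elongation factor subunit, had 0.16 ± 0.015 (SE) and EEF2, the translocation factor, 0.12 ± 0.012 (SE). The gene that fell was EIF4B, a helicase cofactor in initiation, with a slope of -0.097 ± 0.020 (SE, edgeR adjusted p = 0.000477). RACK1 is listed as GNB2L1 and rose, with a slope of 0.11.

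The genes that control TOP mRNAs were divided. Of 17 tested, 9 rose, 7 fell and 1 did not pass, with a median slope of 0.038. All tested genes were divided as well, as 30.7% rose and 32.1% fell. EIF4EBP1, an inhibitor of cap-dependent initiation, had a slope of 0.16 ± 0.013, TSC2, an upstream inhibitor of mTOR, 0.19 ± 0.018, and RPS6KB2, an S6 kinase, 0.17 ± 0.017 (SE). LARP4B, an RNA-binding protein that binds poly(A)-binding protein, fell, with a slope of -0.36 ± 0.036 (SE, edgeR adjusted p = 2.92e-07). LARP1 had a slope of -0.043 ± 0.016 (SE, edgeR adjusted p = 0.0284). Under scaling to GAPDH and ACTB 1 of the 17 rose and 13 fell, where 0.931% of all tested genes rose and 64.2% fell.

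The mRNAs of dedicated chaperones of single ribosomal proteins were divided. Of 6 tested, 2 rose and 3 fell, with a median slope of -0.044, where 30.7% of all tested genes rose and 32.1% fell. Under scaling to GAPDH and ACTB 0 rose and 5 fell, where 64.2% of all tested genes fell. TSR2, the chaperone of RPS26, had a slope of 0.12 ± 0.019 (SE, edgeR adjusted p = 3.59e-05), next to 0.14 ± 0.016 (SE) for RPS26 itself. GRWD1, which escorts RPL3, had -0.22 ± 0.035 (SE, edgeR adjusted p = 4.38e-05), next to 0.14 ± 0.013 (SE) for RPL3. HEATR3, which helps import RPL5, had -0.11 ± 0.020 (SE, edgeR adjusted p = 0.0002), next to 0.087 ± 0.014 (SE) for RPL5. PDCD2L, a relative of the RPS2 chaperone PDCD2, had -0.15 ± 0.033 (SE, edgeR adjusted p = 0.000668), next to 0.18 for RPS2.

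The mitochondrial ribosomal protein mRNAs gave the nearest comparison by function, since they serve the other ribosome of the cell. Of 76 tested, 27 rose (35.5%) and 22 fell (28.9%), with a median slope of 0.0072. These shares are near those of all tested genes, of which 30.7% rose and 32.1% fell. Under scaling to GAPDH and ACTB 0 rose and 57 fell, where 64.2% of all tested genes fell. The TOP tract was found in 8 of 67 of them (11.9%). The list is set beside the cytosolic members as counts and medians, and the difference between the lists was not tested.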

How the data were processed

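RNA of shA673-1c cells was read in 12 stranded poly(A) libraries, 3 per time point, and the deposited values are the authors' raw read counts, whole numbers listed by gene symbol. The submitters' processing notes name FastQC, STAR and hg19. The counting step and the treatment of reads with several matches are not given in the sources used here. Each of the 12 columns was matched to its sample by title, and 0 columns were unmatched.

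Testing used edgeR 4.0.16 (R 4.3.3), its TMM factors and its quasi-likelihood F test, on the 12032 genes whose mean count was 10 or more. Time entered as hours, as 4 groups, or as a cubic for departure from a line, with no block. Benjamini-Hochberg adjustment ran over all tested genes, with a threshold of 0.05, and the model was tested on simulated data. Library totals ranged from 9147018 to 11194705 counts. Replicate pairs of a time point all differed beyond counting noise (12 pairs, chi-square per degree of freedom 3.21 to 8.67). Libraries of the same replicate number deviated together in all 18 pairs (r from 0.45 to 0.774). In 36 pairs of different numbers r ran from -0.55 to 0.112. The labels' numbering allows such a pairing, and the replicate block and the changes taken within replicates used it. The main edgeR tests and the permutation over all arrangements did not use it and are unpaired. Paralog ratios used a pseudocount of 0.5 and all 369600 arrangements of the time labels. Coding length, GC content and shared windows of 75 bases came from GENCODE 44 and the hg38 genome, which is not the build of the files, and start sequences from RefSeq (GRCh38.p14). Named genes were RPL4, RPL14, RPL15, RPL26, RPL38, RPL41, the stalk genes and RPSA, the paralogs and their partners, the 5 highest and 5 lowest by slope (mean of at least 100 counts) and by level per kb, and members departing from a line. In each other list the 4 genes with lowest p were named, and MYC, GAPDH and ACTB served as checks. Some items that these rules name are not reported here, though they stay in all counts and medians. Other genes, such as RPL13A, LARP1 and RPL5, were named after their values were seen. The members and lists were chosen with earlier results of these data known. The alternatives were other scalings, count filters, DESeq2 1.42.0, a replicate block, added pseudogene rows (31 rows for 19 members), a pseudocount of 5, and leaving out each replicate.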

Additional observations from a re-analysis of the deposited data

How the results depend on the processing

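Values for single members follow the scaling. Under scaling to GAPDH and ACTB, 1 member rose and 8 fell by slope, 1 was higher and 11 lower at 4 h, and the median slope was -0.017. The named slopes that turned negative under this scaling were RPL10 (-0.0054), RPL14 (-0.0085), RPL15 (-0.040), RPL17 (-0.063), RPL22 (-0.036), RPL22L1 (-0.083), RPL26 (-0.051), RPL26L1 (-0.061), RPL3 (-0.0030), RPL37 (-0.0084), RPL38 (-0.0048), RPL39L (-0.086), RPL4 (-0.051), RPL41 (-0.085), RPL7 (-0.026), RPS10 (-0.071), RPS18 (-0.019), RPS27 (-0.00052), RPS27L (-0.097) and RPS4X (-0.030). With library totals 2 members fell, 2 were lower at 4 h, and the median slope was 0.082. With a mean of at least 100 counts 0 fell and 0 were lower at 4 h, since RPL36A was not tested. The departure test called 2 members with DESeq2 and 44 with the replicate block, against 0. Over all tested genes it called 466 with DESeq2 and 2073 with the replicate block, against 325. The cause was not tested. With the replicate block, the paralog ratio slopes of RPL22L1 (-0.046) and RPL39L (-0.11) passed. The block also brought RPL22L1 (slope 0.053) and RPS10 (slope 0.066) past the threshold, and it changed the call of no other named slope.

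When each replicate was left out in turn, 71 to 72 members rose, 1 fell, and 70 to 71 were higher and 1 lower at 4 h. The median slope of the members was 0.12 to 0.13, against 0.0052 to 0.0072 for all tested genes. In these fits 0 members departed from a line. Of all tested genes only 12, 0 and 175 did so without replicate 1, 2 and 3, so this 0 is no evidence of a straight line. The ratio slopes then ranged from -0.053 to -0.040 for RPL22L1, from -0.15 to -0.069 for RPL39L, from -0.11 to -0.085 for RPS27L, from -0.14 to -0.13 for RPL7L1 and from -0.023 to 0.015 for RPL26L1.

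Over all alternatives of the named slopes, 336 values kept their direction and their side of the threshold, 8 newly passed, 18 no longer passed in the same direction and 20 turned. Of the 18 that no longer passed, 9 were under scaling to GAPDH and ACTB. RPL36A and RPL17, with the fewest counts among the tested members, are the most limited by counting error, and with 3 replicates per time point p-values measure the spread between these cultures of 1 line.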
